A study of Mus musculus with 10 samples.

Results

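Skeletal muscle sarcomere and fibre-type genes were followed in RNA from the oesophagus of mice treated with 4-NQO, a chemical carcinogen that raises squamous tumours of the mouth and oesophagus. The set holds 40 genes, chosen by symbol, out of 22740 protein-coding genes in the deposited count table, and each of the 40 was found there in a single row. There were 5 libraries of Grhl3 KO and 5 of wild type, 1 mouse each by the design text, all labelled C57BL/6 and all treated. Grhl3 encodes a transcription factor of the grainyhead family that acts in epithelia, and the series title writes the knockout as cKO. The count columns of the Grhl3 KO libraries carry "L2Cre", which the sources used here do not explain; the driver of the Cre recombinase, the cells it acts in and the age of the mice are not given in them. Per the sample labels the Grhl3 KO pieces were tumour and the wild-type pieces plain oesophageal tissue, whereas the design text speaks of tumours in both groups, so genotype and tissue label cannot be told apart. Libraries are named below by group and sample number: 1026, 1027, 1035, 1036 and 1043 in Grhl3 KO, and 1028, 1048, 1528, 1555 and 1561 in wild type. Values listed for single libraries keep this order.

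Total counts ran from 15315418 to 32884323 in Grhl3 KO, against 17771220 to 23437859 in wild type. Levels are given as CPM, the usual depth-scaled count, on library sizes that were adjusted with TMM, a trimmed-mean scaling between libraries. Grhl3 itself ran from 135 to 317 CPM in the libraries labelled Grhl3 KO, against 109 to 363 CPM in wild type, so its counts over the whole gene do not set the groups apart. Y-linked RNA was present in all 5 Grhl3 KO libraries and in 3 of the 5 wild-type libraries; 1528 and 1555 had a summed level of 0.0527 and 0.0539 CPM. The keratin genes Krt13 and Krt14 of the squamous lining averaged 14534 and 17838 CPM in Grhl3 KO, against 18519 and 17185 CPM in wild type. The muscle genes described here took from 0.177 to 0.950% of all counts. In such bulk samples, fewer muscle fibres in the piece and less RNA per fibre cannot be told apart.

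The outer wall of the mouse oesophagus is made of striated muscle, unlike most of the gut, whose wall is smooth muscle. A striated fibre contracts when thick filaments of myosin pull on thin filaments of actin, with troponin and tropomyosin as the calcium-dependent switch and the Z-disc as the anchor. Slow and fast fibres use different genes for many of these proteins, and developing or regenerating fibres use embryonic and perinatal myosins, so the isoforms in an RNA sample describe which fibres it holds.

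The amount of muscle RNA differed widely among Grhl3 KO libraries and much less among wild-type libraries. The 40 genes together took 0.675, 0.199, 0.466, 0.177 and 0.950% of counts in Grhl3 KO, against 0.300, 0.306, 0.307, 0.521 and 0.339% in wild type. The highest value and both of the lowest were Grhl3 KO libraries (1043, then 1036 and 1027), and the wild-type libraries lay between them. Means were 0.493 ± 0.327% in Grhl3 KO, against 0.355 ± 0.0940% in wild type (± is the SD over 5 libraries here and below, unless an SE is named). The sum includes Tpm2, which smooth muscle and other cells also use. Tpm2 held 17853 of the 64447 summed counts in 1027 and 15937 of 45984 in 1036. In 1043 it held 15816 of 164841.

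Most single genes followed the same order of libraries. The low-count filter (a minimum count of 10, edgeR) kept 37 of the 40; Myh7, Myl2 and Tnnc1, all of slow fibres, were not tested. Library 1043 was the highest of all 10 for 30 of the 37 tested genes, against 10.3% of all 13731 genes tested, and library 1036 the lowest for 26, against 8.80% of all genes. For the median tested gene the highest Grhl3 KO library was 8.15-fold above the lowest, and in wild type the same ratio was 2.62. The SD of log2 CPM was larger in Grhl3 KO than in wild type for 34 of the 37, the exceptions being Myh2, Casq2 and Pvalb; over all genes tested the share was 33.0%. The count was 34 of 38 without library 1043 and 31 of 38 without both 1043 and 1026, and the share over all genes was then 31.5% and 27.9%. Because most of these genes followed the same order of libraries, such counts are not counts of independent observations. Depth ran the other way in part: 1043 and 1026 had 17348284 and 15315418 counts, and 1027 and 1036 had 32363462 and 25963312, but 1035, with 32884323, had a muscle share of 0.466%, above 4 of the 5 wild-type libraries. The part of depth in this spread was not tested.

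**Figure D1:**
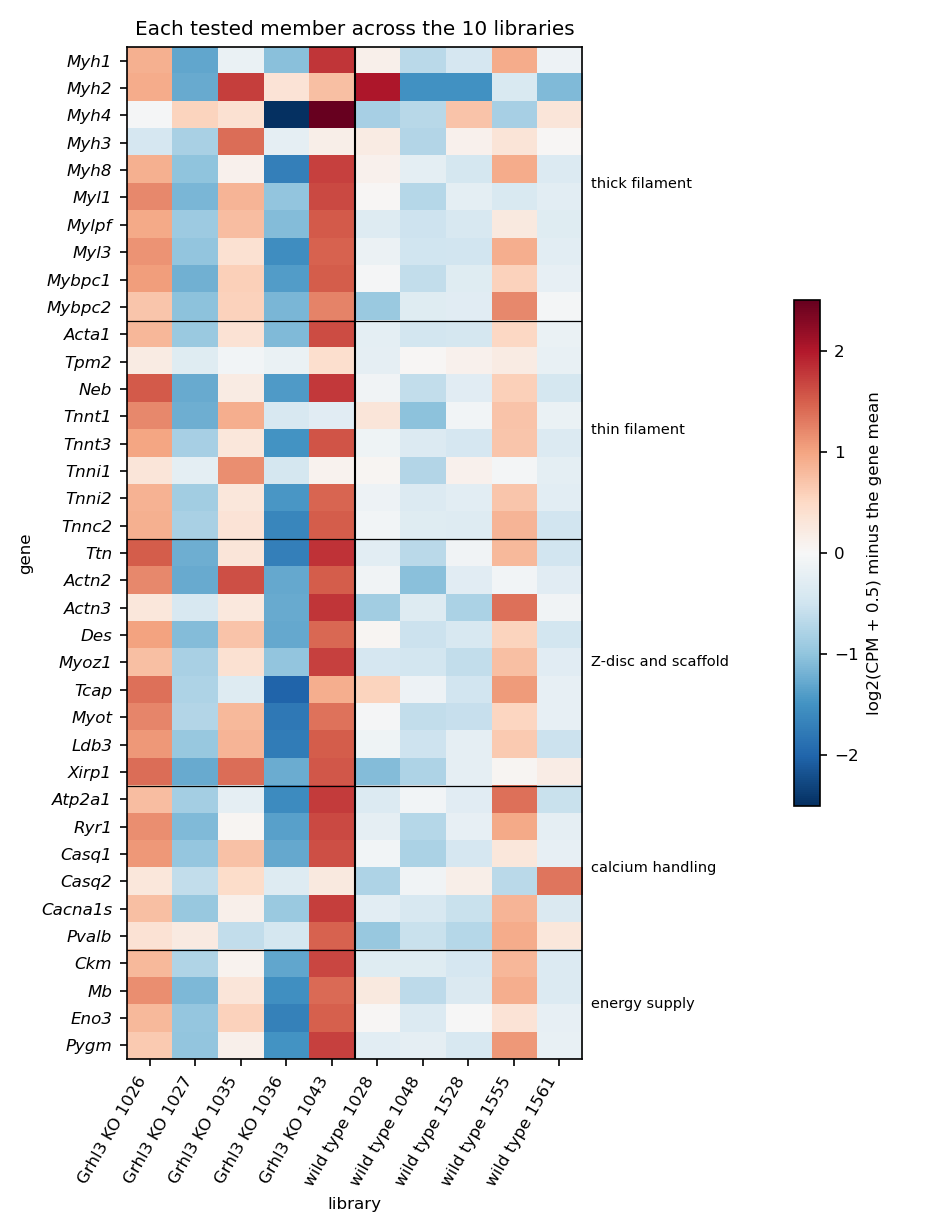
Level of each of the 37 tested genes (rows, by role) in each library (columns, Grhl3 KO left of the line, wild type right), as log2(CPM + 0.5) minus the gene's mean over the 10 libraries. Grhl3 KO 1043 and 1026 are red and 1027 and 1036 blue for most rows. Wild-type libraries are mostly pale apart from 1555. Rows that do not follow the others include Tpm2, Casq2, Myh2, Myh3, Myh4, Tnni1, Tnnt1 and Pvalb.

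Among thick filament genes, 2 heavy chains carried nearly all of the myosin RNA: Myh1, the fast IIX chain, and Myh8, the perinatal chain. The promoters of these, of the fast IIB chain Myh4 next to them and of Acta1, by group means the most abundant gene of the set per length, are shown because the results turn on them. They run 5′ to 3′ from 250 bases before to 50 bases after the start listed by RefSeq (GRCm38.p6), and capitals mark matches to the MEF2 site, the CArG box (bound by SRF) and TATAAA. Myh1 lies at chr11:67199852-67200151 on the plus strand, Myh8 at chr11:67276874-67277173 on the plus strand, Myh4 at chr11:67237562-67237861 on the plus strand and Acta1 at chr8:123894726-123895025 on the minus strand.
Myh1: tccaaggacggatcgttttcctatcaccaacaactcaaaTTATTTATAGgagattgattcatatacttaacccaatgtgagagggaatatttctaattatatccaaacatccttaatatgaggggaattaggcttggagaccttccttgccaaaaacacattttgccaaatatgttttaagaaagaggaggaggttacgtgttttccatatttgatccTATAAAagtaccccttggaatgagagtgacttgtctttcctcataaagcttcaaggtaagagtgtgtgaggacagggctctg
Myh8: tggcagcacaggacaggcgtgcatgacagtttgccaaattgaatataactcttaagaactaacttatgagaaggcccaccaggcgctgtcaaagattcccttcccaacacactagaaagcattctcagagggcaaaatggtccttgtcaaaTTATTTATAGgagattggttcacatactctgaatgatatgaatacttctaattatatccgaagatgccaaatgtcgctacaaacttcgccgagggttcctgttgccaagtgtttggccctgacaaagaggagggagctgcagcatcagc
Myh4: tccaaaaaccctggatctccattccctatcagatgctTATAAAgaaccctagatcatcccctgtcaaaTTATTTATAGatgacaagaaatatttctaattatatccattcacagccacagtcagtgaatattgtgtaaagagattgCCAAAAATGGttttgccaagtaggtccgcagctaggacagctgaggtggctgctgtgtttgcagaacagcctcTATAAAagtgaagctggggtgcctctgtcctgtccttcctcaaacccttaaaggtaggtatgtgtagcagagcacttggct
Acta1: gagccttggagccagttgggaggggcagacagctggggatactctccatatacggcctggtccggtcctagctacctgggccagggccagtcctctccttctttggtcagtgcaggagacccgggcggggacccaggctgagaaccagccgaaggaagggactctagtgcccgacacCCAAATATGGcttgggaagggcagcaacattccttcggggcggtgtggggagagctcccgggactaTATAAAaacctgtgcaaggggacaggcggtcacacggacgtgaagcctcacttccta

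The 3 heavy chain promoters held the same 10-base match to the MEF2 site, TTATTTATAG, at positions −211 in Myh1, −99 in Myh8 and −182 in Myh4 relative to the listed start. MEF2 proteins are transcription factors of muscle genes. RefSeq promoters were matched for 32 of the 40 genes, 1 per gene, and both strands were searched. The MEF2 site was found in 6 of the 32 (18.75%), against 3.26% of 27025 promoters of the same length, and the CArG box in 4 (12.5%), against 1.57%. Of the 6 with a MEF2 site, 3 are these neighbouring, related heavy chain genes, so the 6 are not independent. The MCAT element CATTCC was found in 11 (34.4%), against 14.6%, TATAAA in 8 (25.0%), against 14.2%, and the E-box CANNTG in 27 (84.4%), against 72.1%. On the opposite strand TATAAA overlaps the MEF2 match in the 3 heavy chain promoters, and Myh8 has no other TATAAA. These matches describe letters in the window and not binding.

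Myh1 (ENSMUSG00000056328, chromosome 11, 67200052 to 67224575, GRCm38) stood at 397, 86.3, 191, 104 and 745 CPM in Grhl3 KO, against 233, 134, 159, 407 and 197 CPM in wild type. Myh8 (ENSMUSG00000055775, chromosome 11, 67277124 to 67308634) stood at 388, 105, 226, 63.8 and 691 CPM in Grhl3 KO, against 227, 178, 156, 399 and 166 CPM in wild type. Both were highest in Grhl3 KO 1043 and lowest in 1027 or 1036, and the groups overlapped.
Myh1 averaged 305 ± 275 CPM in Grhl3 KO, against 226 ± 108 CPM in wild type, with a log2 fold change of 0.43 ± 0.56 (the SE), with an adjusted p of 0.935 by edgeR, and Myh8 one of 0.39 (adjusted p = 0.945 by edgeR). Without library 1043 both were negative, at −0.22 and −0.21. Per length, the ratio of Myh8 to Myh1 was 0.965, 1.20, 1.17, 0.606 and 0.917 in Grhl3 KO and 0.963, 1.31, 0.971, 0.969 and 0.835 in wild type, so neither chain was clearly the more abundant.

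The other heavy chains were scarce. Myh4 stood at 4.40, 6.82, 5.98, 0.236 and 45.8 CPM in Grhl3 KO, against 2.31, 2.58, 7.65, 2.32 and 5.69 CPM in wild type. Most of its group difference lies in library 1043, which had 767 counts of Myh4 where the other Grhl3 KO libraries had between 6 and 213; its log2 fold change of 1.61 (adjusted p = 0.787 by edgeR) was 0.082 without that library. Myh2, the fast IIA chain of oxidative fibres, stood at 3.65, 0.416, 6.73, 2.28 and 3.16 CPM in Grhl3 KO, against 8.35, 0.263, 0.264, 1.19 and 0.518 CPM in wild type. Wild-type library 1028 held the highest level of Myh2, and the other 4 wild-type libraries lay below every Grhl3 KO library but 1027, with a log2 fold change of 0.61 (adjusted p = 0.947 by edgeR), and of 2.53 without library 1028 (adjusted p = 0.362 by edgeR) and −0.41 among the 7 libraries numbered 1026 to 1048.
The embryonic chain Myh3 stood at 0.314, 0.128, 2.37, 0.433 and 0.716 CPM in Grhl3 KO, against 0.754, 0.158, 0.686, 0.862 and 0.612 CPM in wild type, with a log2 fold change of 0.40 (adjusted p = 0.951 by edgeR). Grhl3 KO library 1035 alone exceeded 1 CPM of Myh3, and the log2 fold change was −0.66 without it. The slow chain Myh7 had 2, 1, 2, 2 and 1 counts in Grhl3 KO and 2, 0, 0, 0 and 2 counts in wild type. These are at or under the 3 counts that a count of 0 allows in a library, so its ratio to Myh4, given below, is not interpreted.

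As a share of heavy chain RNA per length, Myh1 made up 43.7 to 61.1% in Grhl3 KO, against 42.9 to 53.5% in wild type, and Myh8 37.1 to 52.5% in Grhl3 KO, against 44.6 to 56.1% in wild type. Myh4 made up 0.140 to 3.49% in Grhl3 KO, against 0.290 to 2.40% in wild type, and Myh2 0.211 to 1.57% in Grhl3 KO, against 0.0819 to 1.78% in wild type. The ranges of these 4 chains overlapped between the groups. Myh3, Myh2, Myh1, Myh4 and Myh8 lie side by side on chromosome 11 and resemble each other: Myh1 and Myh8 transcripts were 88.0% identical over 6044 aligned bases. Of all 75-base words in the longest annotated transcript, 16.6% for Myh1, 16.3% for Myh2, 9.68% for Myh4, 12.9% for Myh8 and 1.86% for Myh3 also occur in transcripts of other genes. The sources used here do not say how reads matching several genes were counted, so that part of their counts is uncertain, most of all for the scarce chains beside the abundant ones.

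**Figure D2:**
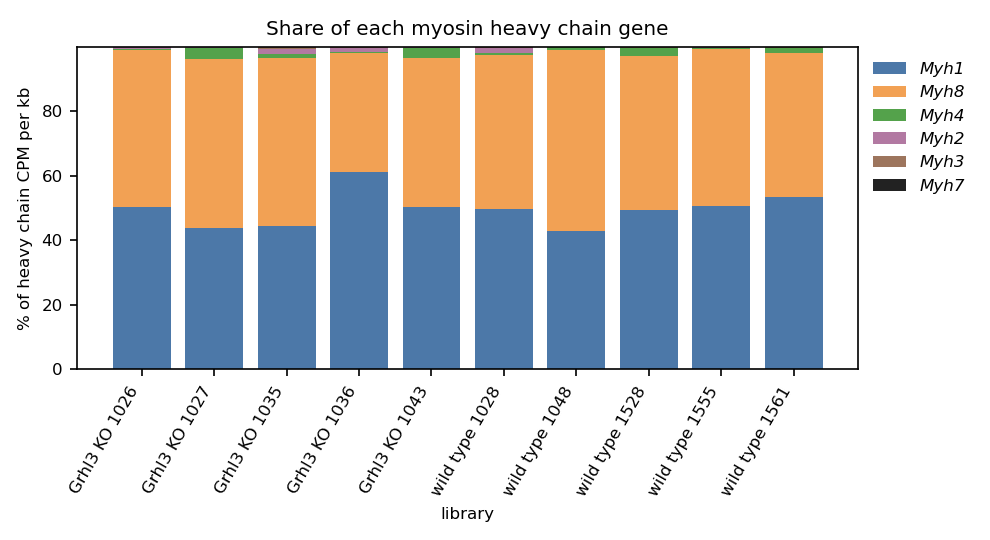
Share of each myosin heavy chain gene in the summed heavy chain CPM per kb of each library (stacked bars, percent; Grhl3 KO left, wild type right). Myh1 and Myh8 fill nearly all of every bar, from 42.9 to 61.1% for Myh1 and from 37.1 to 56.1% for Myh8; Myh4, Myh2, Myh3 and Myh7 form a thin top layer.

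The light chains and myosin-binding proteins showed a mixed isoform pattern. Mylpf, the fast regulatory light chain and the most abundant thick filament gene per length, stood at 247, 67.6, 219, 59.6 and 371 CPM in Grhl3 KO, against 102, 88.8, 96.6, 151 and 104 CPM in wild type. The Grhl3 KO libraries lay on both sides of the wild-type libraries, with a log2 fold change of 0.83 ± 0.45 (the SE), with an adjusted p of 0.763 by edgeR, and it was 0.44 without library 1043. Its slow counterpart Myl2 was at 0 counts in all 5 Grhl3 KO libraries and in 3 wild-type libraries, and at 1 count in each of the other 2; 3 counts, the limit a count of 0 allows, correspond to at most 0.189 CPM in any library.
Myl1, the fast essential light chain, stood at 117, 22.8, 92.8, 25.5 and 162 CPM in Grhl3 KO, against 52.2, 30.8, 43.1, 38.8 and 42.4 CPM in wild type, among the 4 smallest p-values of the set, with a log2 fold change of 1.02 ± 0.49 (the SE), with an adjusted p of 0.719 by edgeR, and it was 0.63 without library 1043. Grhl3 KO libraries 1026, 1035 and 1043 were above every wild-type library and 1027 and 1036 below every one. Of the longest Myl1 transcript, 16.6% of 75-base words also occur in other transcripts, those of a pseudogene (Mylf-ps).
Myl3, the slow and cardiac essential light chain, was abundant, at 108 ± 80.2 CPM in Grhl3 KO, against 76.2 ± 37.3 CPM in wild type. Per length it made up 53.6 to 65.9% of Myl3 and Myl1 together in Grhl3 KO, against 59.1 to 80.9% in wild type. The slow myosin-binding protein C gene Mybpc1 likewise exceeded the fast Mybpc2 per length in every library but wild-type 1555 (46.6% of the pair), with 58.0 ± 4.47% of the pair in Grhl3 KO and 56.5 ± 9.37% in wild type. The same libraries held at most 2 counts of Myh7 and 1 of Myl2.

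Among thin filament genes, skeletal actin Acta1 (ENSMUSG00000031972, chromosome 8, 123891769 to 123894751) stood at 1282, 379, 929, 337 and 2240.3 CPM in Grhl3 KO, against 609.6, 522, 530.2, 1039.9 and 645 CPM in wild type. By group means it was the most abundant gene of the set per length, at 715 CPM per kb in Grhl3 KO and 463 CPM per kb in wild type. Tpm2 was above it in Grhl3 KO 1036 (289 against 233 CPM per kb) and, narrowly, in 1027 (262.7 against 262.0 CPM per kb). Acta1 was the higher in every other library. Its log2 fold change was 0.63 ± 0.47 (the SE), with an adjusted p of 0.845 by edgeR, with 95% limits of −0.41 to 1.67, and it was 0.12 without library 1043. The Grhl3 KO libraries 1043 and 1026 were above every wild-type library and 1027 and 1036 below every one.
Tropomyosin Tpm2 behaved differently. It stood at 818, 571, 669, 628 and 944 CPM in Grhl3 KO, against 606, 719.7, 756, 809 and 619 CPM in wild type, a range of 1.65-fold in Grhl3 KO and 1.34-fold in wild type, the narrowest of the set. Its log2 fold change was 0.048 (adjusted p = 0.978 by edgeR), and it was −0.069 without library 1043; Tpm2 is also used by smooth muscle and other cells. Nebulin (Neb), the ruler of the thin filament, averaged 116 ± 99.7 CPM in Grhl3 KO, against 64.9 ± 23.8 CPM in wild type.

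The troponins were almost entirely of the fast type. Fast troponin I (Tnni2) stood at 171, 50.9, 114, 33.8 and 259 CPM in Grhl3 KO, against 85.2, 73.9, 78.3, 152 and 77.5 CPM in wild type. Slow troponin I (Tnni1) stood at 4.97, 3.23, 9.33, 2.76 and 4.18 CPM in Grhl3 KO, against 4.10, 2.16, 4.27, 3.77 and 3.25 CPM in wild type. The slow gene made up 3.48 ± 1.90% of the pair per length in Grhl3 KO and 2.58 ± 0.796% in wild type, and was highest in library 1035 where the fast gene was highest in 1043.
For troponin T, the fast gene Tnnt3 stood at 260.2, 72.9, 159.9, 46.3 and 392 CPM in Grhl3 KO, against 122, 103, 97.6, 213 and 103 CPM in wild type. The slow gene Tnnt1 stood at 8.05, 1.09, 6.50, 2.32 and 2.57 CPM in Grhl3 KO, against 4.10, 1.32, 3.06, 5.55 and 2.82 CPM in wild type. It made up 2.81 ± 1.73% of that pair in Grhl3 KO and 2.60 ± 0.789% in wild type.
Slow troponin C (Tnnc1) made up 0.629 ± 0.361% in Grhl3 KO, against 0.646 ± 0.564% in wild type beside the fast gene Tnnc2, which averaged 144 ± 107 CPM in Grhl3 KO, against 106 ± 47.2 CPM in wild type. Log2 fold changes were 0.43 (adjusted p = 0.918 by edgeR) for Tnni2, 0.48 (adjusted p = 0.824 by edgeR) for Tnni1, 0.55 (adjusted p = 0.888 by edgeR) for Tnnt3 and 0.28 (adjusted p = 0.958 by edgeR) for Tnnt1; without library 1043 that of Tnni2 was −0.020 and that of Tnnt3 0.075, without library 1035 that of Tnni1 was 0.10, and without library 1026 that of Tnnt1 was −0.10.

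Z-disc and scaffold genes held 2 of the 4 smallest p-values. Alpha-actinin 2 (Actn2), the crosslinker of actin at the Z-disc, stood at 66.9, 11.7, 89.0, 11.5 and 83.6 CPM in Grhl3 KO, against 26.9, 13.7, 23.5, 27.3 and 23.5 CPM in wild type. Xirp1, an actin-binding repeat protein of muscle attachment sites, stood at 19.8, 2.69, 19.7, 2.72 and 21.9 CPM in Grhl3 KO, against 3.11, 4.00, 6.01, 7.44 and 8.14 CPM in wild type. In both, Grhl3 KO libraries 1026, 1035 and 1043 exceeded every wild-type library by a wide margin and 1027 and 1036 lay below every one.
The log2 fold change of Actn2 was 1.19 ± 0.55 (the SE), with an adjusted p of 0.711 by edgeR and that of Xirp1 was 1.21 (adjusted p = 0.729 by edgeR). Desmin (Des), the intermediate filament protein around the Z-disc and also a smooth muscle gene, had the highest mean per length of this role over the 10 libraries. It stood at 354, 82.8, 288, 71.5 and 477 CPM in Grhl3 KO, against 182, 120.5, 132, 257 and 128 CPM in wild type. Its log2 fold change was 0.64 (adjusted p = 0.850 by edgeR), and it was 0.28 without library 1043.
Telethonin (Tcap), the cap of titin, stood at 113, 24.8, 34.0, 10.3 and 80.7 CPM in Grhl3 KO, against 63.0, 39.0, 30.4, 90.3 and 36.9 CPM in wild type. It was highest in 1026 and not in 1043, and its log2 fold change of 0.0089 (adjusted p = 0.999 by edgeR) changed sign in 5 of the 10 fits with 1 library left out, with values from −0.48 to 0.29. Alpha-actinin 3 (Actn3), the fast-fibre form, averaged 31.5 ± 27.1 CPM in Grhl3 KO, against 24.4 ± 19.4 CPM in wild type, and titin (Ttn) 150.2 ± 131 CPM in Grhl3 KO, against 87.6 ± 40.6 CPM in wild type. The remaining Z-disc genes (Myoz1, Myot and Ldb3) each had group means between 10.3 and 37.3 CPM.

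**Figure D3:**
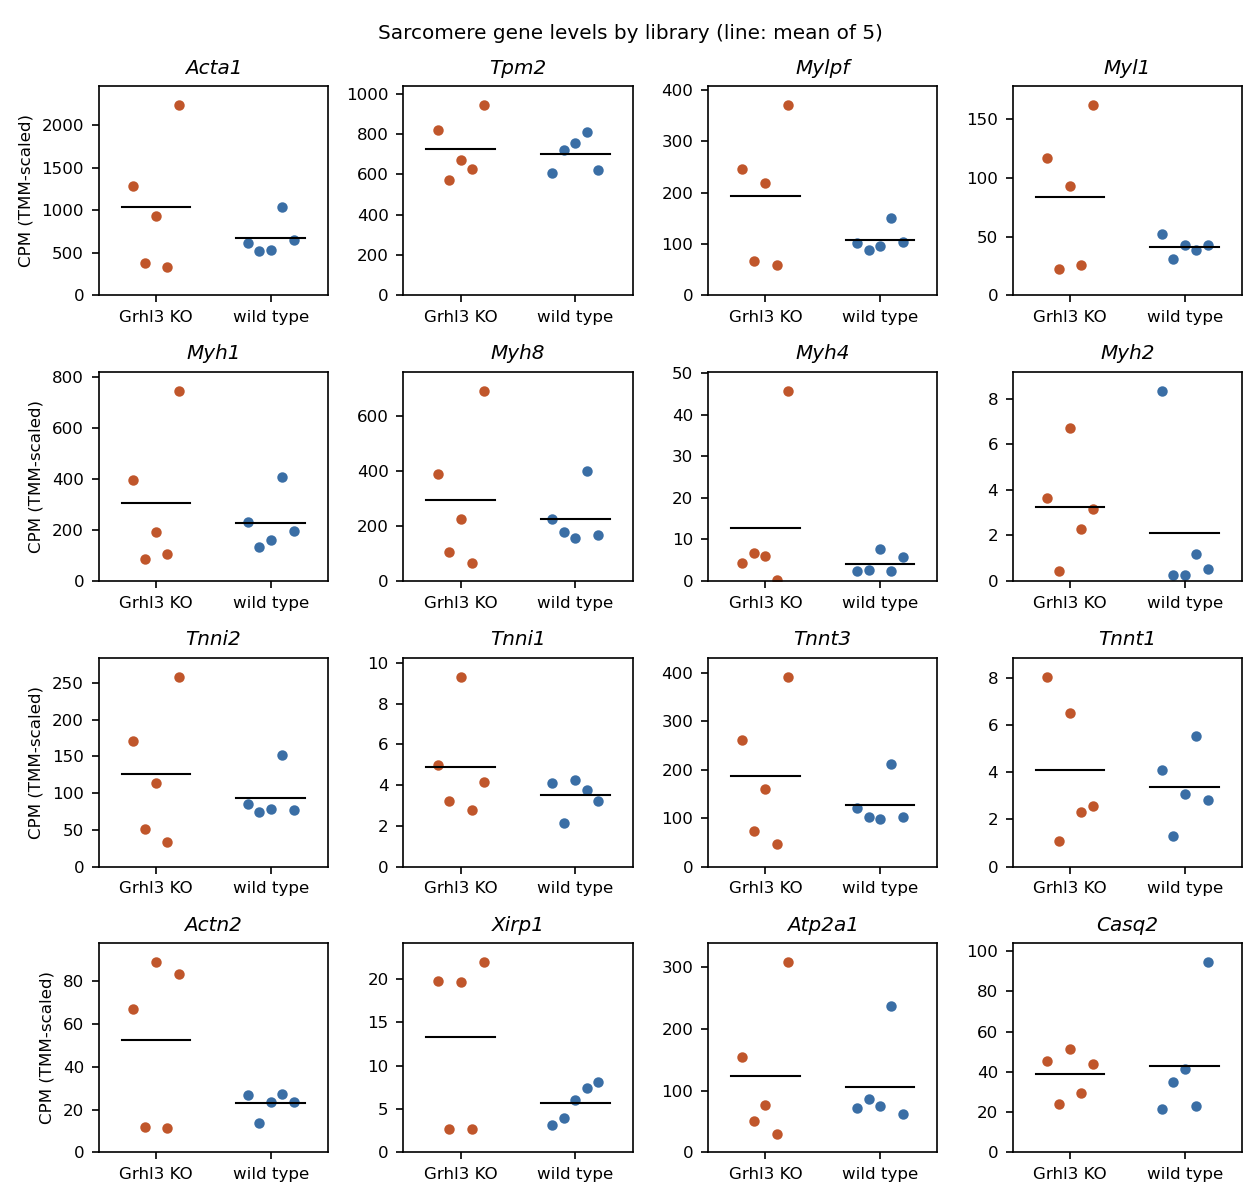
CPM of 16 named genes in every library (points; Grhl3 KO left, wild type right; the line is the mean of 5; axes are linear and start at 0). Grhl3 KO points spread from below to above the wild-type points in most panels, in Actn2 and Xirp1 as 3 high and 2 low points; Tpm2 is nearly flat, and single libraries stand out for Myh4 (Grhl3 KO 1043), Myh2 (wild type 1028) and Casq2 (wild type 1561).

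Among calcium-handling genes, the fast calcium pump Atp2a1 had the highest mean per length over the 10 libraries. It stood at 155, 50.6, 77.6, 30.5 and 308 CPM in Grhl3 KO, against 72.1, 86.9, 74.6, 237 and 62.0 CPM in wild type. Library 1043 and wild-type library 1555 were the highest, and the log2 fold change was 0.22 (adjusted p = 0.974 by edgeR), −0.45 without 1043 and 0.74 without 1555. The calcium release channel gene Ryr1 averaged 41.3 ± 34.5 CPM in Grhl3 KO, against 28.9 ± 14.8 CPM in wild type. The voltage sensor gene Cacna1s averaged 10.4 ± 8.85 CPM in Grhl3 KO, against 6.92 ± 3.57 CPM in wild type. In both, as in the fast calsequestrin Casq1 (24.3 ± 17.8 CPM in Grhl3 KO, against 13.4 ± 3.82 CPM in wild type), library 1043 was the highest.
Casq2, the cardiac and slow-fibre calsequestrin, was the 1 tested gene with a lower fitted level in Grhl3 KO, at 45.2, 24.2, 51.4, 29.5 and 43.9 CPM in Grhl3 KO, against 21.5, 35.1, 41.4, 23.2 and 94.4 CPM in wild type. Wild-type library 1561 was far above the rest, and the log2 fold change of −0.15 (adjusted p = 0.972 by edgeR) was 0.36 without it. In the same library the 40 genes together took 0.339% of counts, near the wild-type mean. Parvalbumin (Pvalb), the calcium buffer of the fastest fibres, was scarce, with a mean of 1.38 ± 1.22 CPM in Grhl3 KO, against 0.902 ± 0.825 CPM in wild type.

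Genes of energy supply followed the muscle share. Myoglobin (Mb), the oxygen store of oxidative fibres, led per length and stood at 328, 66.7, 179.5, 49.9 and 392 CPM in Grhl3 KO, against 172, 91.9, 113, 273 and 116 CPM in wild type. Its log2 fold change was 0.41 (adjusted p = 0.938 by edgeR), and it was 0.022 without library 1043. Muscle creatine kinase (Ckm) averaged 249 ± 199 CPM in Grhl3 KO, against 176 ± 79.1 CPM in wild type. Muscle enolase (Eno3) averaged 73.9 ± 54.8 CPM in Grhl3 KO, against 52.9 ± 9.90 CPM in wild type, and glycogen phosphorylase (Pygm) 70.3 ± 61.1 CPM in Grhl3 KO, against 56.2 ± 29.9 CPM in wild type. In all 4, library 1043 was the highest and 1036 the lowest.

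Between Grhl3 KO and wild type, 0 of the 37 tested genes passed the threshold of 0.05 on the adjusted p-value (edgeR quasi-likelihood F-test), against 0.0801% of all genes tested, of which 0.0291% were higher and 0.0510% lower in Grhl3 KO. At an unadjusted p under 0.05 the count was also 0, against 7.16% of all genes (3.44% higher and 3.72% lower). That count moved with the libraries: it was 8 of 38 without library 1036 (5.74% of all genes in that fit), 5 of 38 without 1027 (5.77%) and 1 of 38 without wild-type library 1028 (9.09%), and with library totals alone as the scaling it was 2 of 37 (6.66%). DESeq2 and limma voom also passed 0 after adjustment, with 3 and 0 at an unadjusted p under 0.05, against 8.62% and 6.69% of all genes in those fits. For 36 of the 37 the fitted level was higher in Grhl3 KO, against 49.7% of all genes, and the median log2 fold change was 0.51 (range −0.15 to 1.61), against −0.0011 over all genes. Most of these genes followed the same order of libraries, so the 36 are not independent observations. In 0 of the 37 did the groups not overlap, against 1.35% of all genes.
By role, the median log2 fold change was 0.54 for the 10 thick filament genes tested, 0.46 for 8 thin filament genes, 0.69 for 9 Z-disc and scaffold genes, 0.55 for 6 calcium-handling genes and 0.44 for 4 energy genes. By fibre type it was 0.57 for 14 fast, 0.48 for 5 slow, 0.40 for 2 developmental and 0.60 for 16 shared genes.

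**Figure D4:**
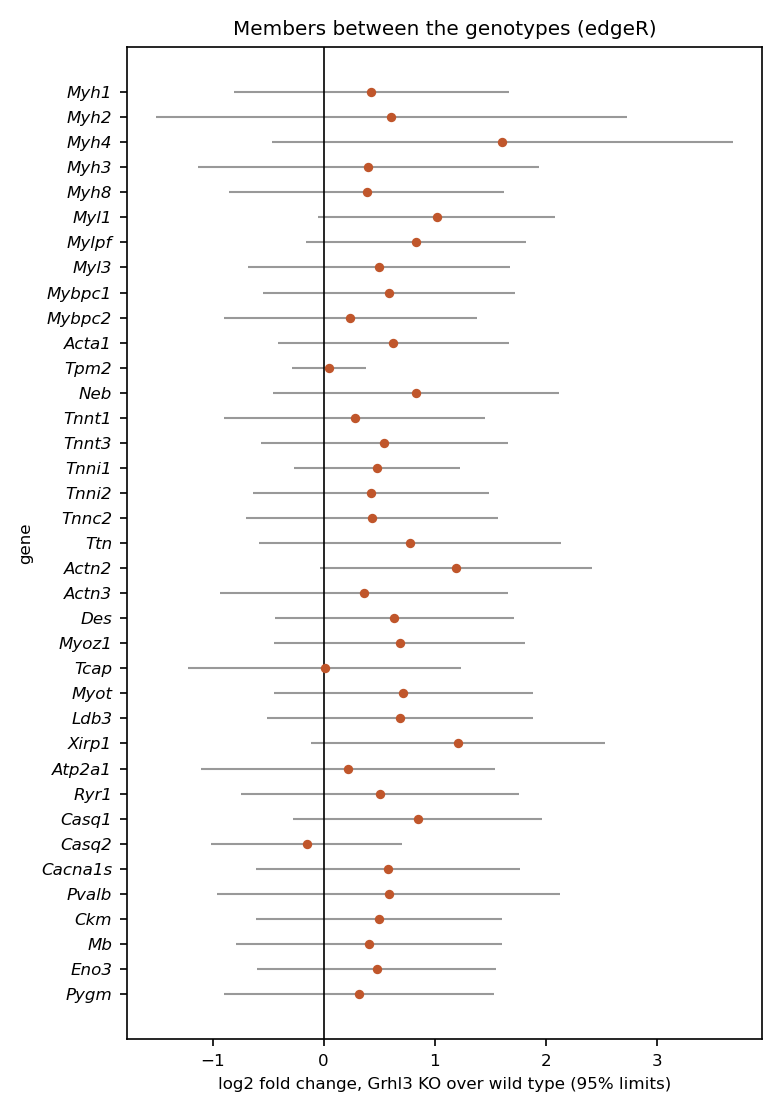
Log2 fold change of each of the 37 tested genes, Grhl3 KO over wild type (points), with 95% limits from edgeR (bars). All points but Casq2 lie above 0 and the limits of every gene include 0.

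Without library 1043 the median was 0.090 and 24 of 38 tested genes were higher, and without both 1043 and 1026, a choice made after seeing the data, the median was −0.33 and 9 of 38 were higher. Leaving out wild-type library 1555, the wild-type library with the most muscle RNA, gave 0.80. Among the 7 libraries numbered 1026 to 1048, with 5 Grhl3 KO and 2 wild-type libraries, the median was 0.82 with 37 of 38 higher; libraries 1528, 1555 and 1561 are all wild type, and the meaning of the sample numbers is not stated. With the Y-linked level as a covariate it was 0.83 with 35 of 37 higher, and limma voom gave 0.19 with 32 of 37 higher. In none of these fits did any of the genes pass the threshold.

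**Figure D5:**
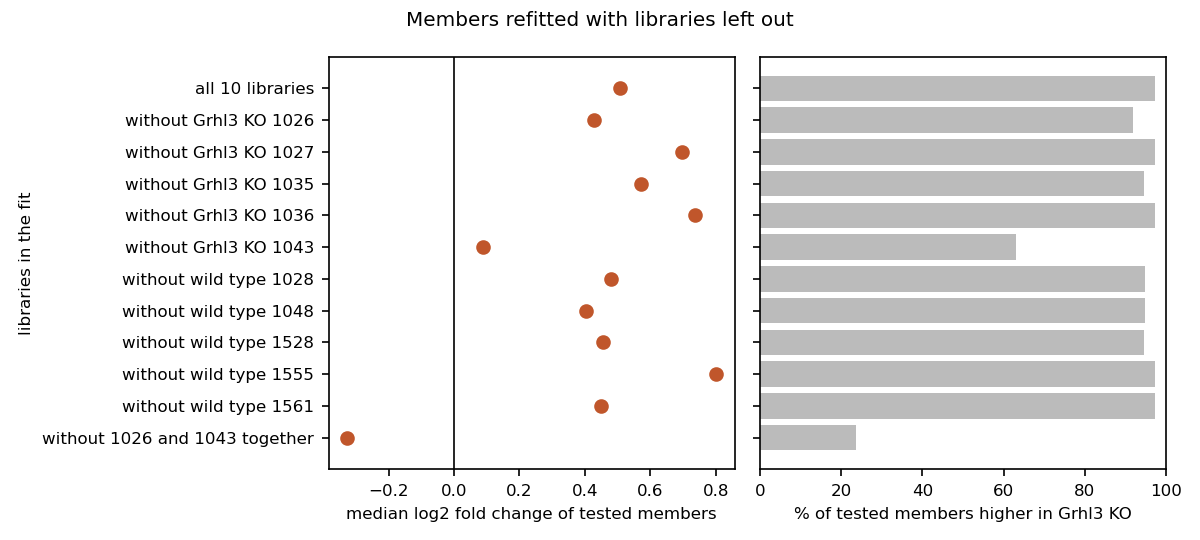
Median log2 fold change (left, points) and percent of tested members with a higher fitted level in Grhl3 KO (right, bars) with all 10 libraries and with libraries left out. The median lies between 0.40 and 0.80 except without 1043 (0.090) and without 1043 and 1026 (−0.33).

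Isoform balance was compared by ratios within a library, which do not change with library scaling. Over 6 ratios, exact two-sided permutation tests gave adjusted p = 0.841 for each. The log2 ratio of Myh1 to Myh4 averaged 5.57 ± 2.05 in Grhl3 KO and 5.85 ± 1.22 in wild type (n = 5 each, exact p = 0.786). That of Myh8 to Myh4 averaged 5.50 ± 1.73 in Grhl3 KO and 5.86 ± 1.25 in wild type (exact p = 0.698). For Myh2 to Myh4 it was −0.95 ± 3.01 in Grhl3 KO, against −2.08 ± 2.58 in wild type (exact p = 0.516), a difference of 1.13 that was 0.10 when library 1036 was left out and 2.11 when library 1028 was.
For slow to fast troponin I it was −4.45 ± 1.04 in Grhl3 KO, against −4.71 ± 0.481 in wild type (exact p = 0.635), and for troponin T −5.44 ± 1.20 in Grhl3 KO, against −5.31 ± 0.549 in wild type (exact p = 0.841). The sixth ratio, Myh7 to Myh4, had an exact p of 0.762 but sits on counts of 0 to 2 for Myh7. The smallest p this design allows is 0.00794.

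Other skeletal muscle genes outside the set were counted in the same fit. Their sum was 286 to 1575 CPM in Grhl3 KO, against 438 to 869 CPM in wild type, with 1043 the highest and 1036 the lowest. Of 61 listed, 59 were tested, 54 with a higher and 5 with a lower fitted level in Grhl3 KO and a median of 0.46. After adjustment 0 passed, and 6 had an unadjusted p under 0.05 upward by edgeR, against 3.44% of all genes. These genes were read in the same libraries as the set, so their counts are not independent of it. Mybph, a myosin-binding protein H gene, had a log2 fold change of 1.69 (adjusted p = 0.645 by edgeR), Xirp2, the second Xin repeat gene, 1.42 (adjusted p = 0.661 by edgeR) and Asb5, an ankyrin-repeat gene of muscle, 1.55 (adjusted p = 0.664 by edgeR). Xirp2 stood at 211, 20.0, 138, 26.7 and 165 CPM in Grhl3 KO, against 46.9, 23.4, 50.4, 48.3 and 40.5 CPM in wild type. For this gene, as for Xirp1, libraries 1026, 1035 and 1043 were above every wild-type library.
Regulators of muscle formation summed to 85.5, 25.3, 75.7, 21.3 and 89.0 CPM in Grhl3 KO, against 33.2, 29.5, 31.1, 55.1 and 44.6 CPM in wild type, with 1043 the highest and 1036 the lowest. Of 14 listed genes 12 were in the table under these names and 6 were tested, all with a higher fitted level and a median of 0.52, and Pax7, Myf5, Myod1, Pax3 and Megf10 were under 1 CPM in every library. Myf6, the myogenic factor of mature fibres, had a log2 fold change of 1.24 (adjusted p = 0.741 by edgeR), and Mef2c, which encodes a MEF2 factor, one of 0.69 (adjusted p = 0.824 by edgeR). Neuromuscular junction genes summed to 186 to 411 CPM in Grhl3 KO, against 207 to 411 CPM in wild type, and 1043 had the lowest sum. Of 9 tested neuromuscular junction genes 5 were higher and 4 lower (median 0.029), with Musk at 0.99 (adjusted p = 0.794 by edgeR), Ache at 0.72 (adjusted p = 0.805 by edgeR) and Lrp4 at −0.28 (adjusted p = 0.824 by edgeR).

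Markers of other tissues are given as sums over each list. Smooth muscle genes summed to 322 to 855 CPM in Grhl3 KO, against 301 to 716 CPM in wild type, with 4 of 12 tested genes higher and 8 lower (median −0.42); Smtn had a log2 fold change of 0.35 (adjusted p = 0.622 by edgeR), Kcnmb1 −0.67 (adjusted p = 0.772 by edgeR) and Synpo2 0.64 (adjusted p = 0.824 by edgeR). The smooth muscle sum was 855, 322, 412, 395 and 417 CPM in Grhl3 KO, against 541, 716, 333, 470.1 and 301 CPM in wild type. It was highest in 1026, second in muscle share, and lowest within Grhl3 KO in 1027, while 1036 and 1043, the lowest and highest in muscle share, had similar sums. Among cardiac genes, Myh6, Nppa, Mybpc3 and Ryr2 were under 1 CPM in every library, and 4 of 6 tested genes had a higher fitted level, 2 of them at an unadjusted p under 0.05 (3.44% of all genes). The other 2 were lower, 1 of them at an unadjusted p under 0.05 (3.72% of all genes). The cardiac sum was 166 CPM in 1043 and 52.0 CPM in 1036, the highest and lowest of Grhl3 KO, against 44.7 to 92.9 CPM in wild type. Library 1027, also low in muscle share, had a cardiac sum of 124 CPM.
Squamous epithelium genes summed to 60949 to 79205 CPM in Grhl3 KO, against 52624 to 126186 CPM in wild type, with 4 of 14 higher. Fibroblast genes summed to 311 to 802 CPM in Grhl3 KO, against 347 to 597 CPM in wild type (8 of 10 higher), endothelial genes to 88.6 to 132 CPM in Grhl3 KO, against 67.9 to 172 CPM in wild type (5 of 8), and leukocyte genes to 3432 to 5025 CPM in Grhl3 KO, against 1397 to 9460 CPM in wild type (3 of 7). Nerve and Schwann cell genes summed to 75.3 to 146 CPM in Grhl3 KO, against 49.1 to 173 CPM in wild type (1 of 4 higher), adipocyte genes to 36.7 to 187 CPM in Grhl3 KO, against 29.4 to 287 CPM in wild type (0 of 3), and immediate early genes, which respond to handling of tissue, to 878 to 1238 CPM in Grhl3 KO, against 839.9 to 1436 CPM in wild type (5 of 12). None of these lists had a gene past the threshold, and their part in the spread of the sarcomere genes was not tested.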

How the data were processed

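Per the labels' protocols, the kits were RNeasy Micro for RNA and TruSeq stranded mRNA for libraries. The deposited table holds the authors' raw counts per protein-coding gene, reverse-stranded by its own title, made with featureCounts on GRCm38 per the submitters' processing notes; no aligner is named in them. It has 0 further columns of per-sample values and 0 rows without a gene name, and 0 pairs of libraries were identical.

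Genes were filtered with filterByExpr (minimum count 10, total 15) and fitted with edgeR 4.0.16 in R 4.3.3 (TMM, quasi-likelihood F-test, robust dispersions), with Benjamini-Hochberg adjustment over all 13731 genes tested and a threshold of 0.05. Fold changes are Grhl3 KO over wild type. Log2 CPM carry a prior count of 2 and isoform ratios an added count of 0.5. Lengths, positions and 75-base words come from the longest coding transcripts of GENCODE on GRCm38, promoters from RefSeq. Values in every library are given for the heavy chains, the gene with the highest mean per length in each role, the ratio partners and the 4 smallest p-values. Tpm2, Casq2, Tcap, Xirp2 and the Myh4 promoter were picked with their values known. The members, lists and ratios were chosen with earlier results of these data known. Alternatives used DESeq2 1.42.0, limma 3.58.1, other scalings and filters, and libraries left out. The fit was tested on simulated counts with changes placed in randomly drawn genes. It recovered 62.9% of 2-fold and 88% of 4-fold changes, with 5 false calls. The median SD of log2 CPM in Grhl3 KO was 1.31 for the 37 tested genes, against 0.216 over all genes. Recovery of a change in the 37 genes was therefore not measured.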

Additional observations from a re-analysis of the deposited data

Results flagged for a closer look

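Of 80 groups of 5 libraries (40 genes in 2 groups), 22 held a library far from the other 4. Chance flags about 1 group in 20 only if CPM are normally distributed within a group, which was not tested. In wild type, library 1555 was the high one for 16 genes: Mylpf at 151 CPM, Myl3 at 142 CPM, Mybpc2 at 80.1 CPM, Acta1 at 1039.9 CPM, Tnnt3 at 213 CPM, Tnni2 at 152 CPM, Tnnc2 at 189 CPM, Ttn at 158 CPM, Actn3 at 58.5 CPM, Myoz1 at 19.2 CPM, Ldb3 at 38.5 CPM, Atp2a1 at 237 CPM, Ryr1 at 54.8 CPM, Cacna1s at 13.3 CPM, Ckm at 317 CPM and Pygm at 109.5 CPM. The next wild-type library stood at 145 CPM for Ckm, 45.5 CPM for Pygm and 645 CPM for Acta1. Library 1043 stood apart in Grhl3 KO for Myh4 (45.8 CPM, next 6.82 CPM) and Actn3 (77.97 CPM, next 26.98 CPM), and library 1035 for Myh3 (2.37 CPM, next 0.716 CPM). In wild type, library 1028 stood apart for Myh2 (8.35 CPM, next 1.19 CPM) and library 1561 for Casq2 (94.4 CPM, next 41.4 CPM), and library 1048 was the low one for Actn2 (13.7 CPM, next 23.5 CPM). These genes share libraries, so the 22 groups are not independent.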

How the results depend on the processing

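Of the settings tried, 0 brought any of the genes past the adjusted threshold, and the count at an unadjusted p under 0.05 ran from 0 to 8. The number of genes with a higher fitted level ran from 24 to 37 with 1 library left out, the median log2 fold change from 0.090 to 0.80 and the number with a larger SD in Grhl3 KO, recounted this way after seeing the data, from 33 to 37. Without libraries 1026 and 1043 together, a setting chosen after seeing the data, 9 of 38 genes were higher and 28 changed sign. Of the 20 genes followed singly, these turned negative: Myh1 −0.83, Myh8 −0.77, Acta1 −0.29, Tpm2 −0.17, Tnnt1 −0.023, Tnnt3 −0.45, Tnni2 −0.49, Des −0.15, Tcap −1.17, Atp2a1 −1.01, Mb −0.63. Among the same 20 genes, with limma voom, Myh3 was at −0.067 and Tcap was at −0.43 and Atp2a1 was at −0.049. With the Y-linked covariate, Myh2 was at −0.025. Within the libraries numbered 1026 to 1048, Myh2 was at −0.41 and Casq2 was at 0.46. With limma voom 4 of 37 genes changed sign, with the Y-linked covariate 1 and within the numbered libraries 2; without library 1043 it was 13, and without any other single library at most 2. With 1 library left out, the log2 fold changes that changed sign among the 20 genes ran from −0.10 to 0.52 for Tnnt1, from −0.48 to 0.29 for Tcap, from −0.66 to 0.67 for Myh3, from −0.22 to 0.74 for Myh1, from −0.21 to 0.68 for Myh8, from −0.069 to 0.11 for Tpm2, from −0.020 to 0.66 for Tnni2, from −0.45 to 0.74 for Atp2a1, from −0.34 to 0.36 for Casq2. The differences in log2 ratio that changed sign ran from −1.06 to 0.19 for Myh1 to Myh4, from −0.98 to 0.034 for Myh8 to Myh4, from −0.42 to 0.32 for Tnnt1 to Tnnt3, from −0.60 to 1.30 for Myh7 to Myh4. Other ratio differences that changed sign were −0.21 for Myh7 to Myh4 with an added count of 2, −0.28 for Myh7 to Myh4 within the libraries numbered 1026 to 1048, −0.29 for Myh2 to Myh4 within the libraries numbered 1026 to 1048, 0.13 for Tnnt1 to Tnnt3 within the libraries numbered 1026 to 1048. The cause was not tested. No paired analysis was possible because the groups share no sample number. The slow genes Myh7, Myl2 and Tnnc1 had at most 48 counts in any library and were not tested in the main fit. The low-count filter was run anew in each fit with libraries left out, so 37 or 38 genes were tested there. With no filter all 40 were tested.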
